A study of Mus musculus with 12 samples.

Results

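Transcripts of 39 microglia and macrophage genes were examined in the hypothalamus of mouse pups. The genes were taken from a fixed list of symbols, and a listed gene was kept if its counts summed to at least 10 over all libraries. All 39 were found and kept, out of 18017 genes in the count table with that many counts. Of them 37 also passed the count filter for testing, which 13104 genes passed in all. The exceptions were Cd14, with 49 counts in sum, and Spp1, with 100 counts in sum.

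The pups were male C57/Bl6 mice with no engineered allele named, killed at postnatal day 6 (P6). The 6 Control pups were not put through the procedure. The 6 MMS pups underwent modified maternal separation, a daily period of warmed separation from the dam in which they were kept on their backs by hand. Their hypothalamus was dissected directly after the final session, so both groups share age, sex and strain and differ in the procedure. Each pup gave 1 library, prepared from the 3' end of polyadenylated RNA. Males of each litter were divided between the groups, but the labels do not tie a library to a litter, so p-values measure the spread between these libraries and take no account of litter.

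Library totals lay between 3218777 and 6560620 counts. Values are given as CPM, counts relative to the library total, scaled by the trimmed mean of M values. A 3' library yields about 1 fragment per transcript whatever its length, so CPM can also be compared between genes. The hypothalamic transcripts Pomc, Pmch, Hcrt, Avp, Oxt, Sim1 and Nkx2-1 had counts in all 12 libraries, and Agrp in 11. MMS 2 and MMS 4 stood apart from the rest, being the highest of all libraries for 15.5% and 14.0% of tested genes and the lowest for 16.7% and 12.5%. Fold changes that moved the most on leaving both out are also given without them.

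Microglia are the resident macrophages of the brain. They arise from yolk sac precursors, are held in the tissue by signalling through CSF1R, and depend on the transcription factors PU.1 (encoded by Spi1) and IRF8. In the postnatal brain they survey the tissue through fractalkine and purine receptors, tag synapses with the complement protein C1q, engulf dying cells through TREM2 and MERTK, and digest what they take up in lysosomes. Related macrophages, marked by Mrc1 and Pf4, line the meninges and the spaces around vessels. Several of the listed genes are not restricted to these cells. Cathepsins B and D, legumain and Gas6 are made by many cells of the brain, and Mertk is also made by astrocytes.

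Because PU.1 is the lineage factor shared by these cells, the promoters of the members were searched for a common core of its binding motif, the letters GAGGAAG, on both strands (CTTCCTC on the opposite strand). Promoter windows of 300 bases, from 250 before to 50 after the transcription start (RefSeq, GRCm38.p6), were at hand for 30 of the 39 members. The letters occurred in 13 of these (43.3%), against 15.4% of 27025 genes with such a window. The 13 were Apbb1ip, C1qc, Cd53, Ctss, Fcgr3, Inpp5d, Itgam, Laptm5, Mrc1, P2ry13, Pf4, Spp1 and Trem2. The general ETS letters GGAAGT, which overlap the first motif where a T follows it, were found in 50% of the members' windows and 26.5% of all genes. The E-box CACGTG was found in 13.3% against 8.09%, and TATAAA in 16.7% against 15.7%. A match is a description of the letters and not of a bound site. The 250 bases before the start are shown for the 3 members with an unadjusted p under 0.05 in the comparison described below, with the PU.1 letters in capitals. They lie at chr9:120068297-120068546 on the minus strand for Cx3cr1, chr2:14229164-14229413 on the plus strand for Mrc1 and chr7:128062390-128062639 on the plus strand for Itgam.
Cx3cr1: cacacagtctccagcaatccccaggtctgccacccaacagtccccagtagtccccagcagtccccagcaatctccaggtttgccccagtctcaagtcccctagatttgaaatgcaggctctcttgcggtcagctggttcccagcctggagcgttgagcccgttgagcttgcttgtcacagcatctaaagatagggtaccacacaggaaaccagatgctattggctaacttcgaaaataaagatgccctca
Mrc1: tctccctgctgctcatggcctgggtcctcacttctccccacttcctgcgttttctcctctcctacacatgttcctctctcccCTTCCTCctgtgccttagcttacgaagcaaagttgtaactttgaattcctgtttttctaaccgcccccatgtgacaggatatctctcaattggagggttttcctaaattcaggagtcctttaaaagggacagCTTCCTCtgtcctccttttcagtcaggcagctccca
Itgam: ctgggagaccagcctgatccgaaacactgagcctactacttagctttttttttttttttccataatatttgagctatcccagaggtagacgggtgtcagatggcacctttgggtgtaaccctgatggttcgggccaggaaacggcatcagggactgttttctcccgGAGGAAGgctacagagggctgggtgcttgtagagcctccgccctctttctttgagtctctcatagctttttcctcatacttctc
The Mrc1 window held 2 matches and the Itgam window 1, and the Cx3cr1 window held 0.

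The comparison asked whether transcripts of microglia and macrophages differed between MMS and Control pups. No member passed a false discovery rate (FDR) of 0.05 in edgeR's quasi-likelihood test, and 0 of the 13104 genes tested did (0%; DESeq2 called 7). Of the 37 members, 18 had a higher and 19 a lower mean in MMS, with a median log2 fold change of -0.04 beside 0.0009 over all genes. The 37 members ranged from -0.80 for Mrc1 to 0.82 for Lyz2. At an unadjusted p under 0.05 there were 3 members, beside 9.08% of all genes. Of these, 1 was higher in MMS (Itgam, beside 4.68% of all genes) and 2 were lower (Cx3cr1 and Mrc1, beside 4.40%). This share is near that of all genes. Without MMS 2 and MMS 4 there were 2 members, Sall1 and Mrc1, both lower, beside 5.03% of all genes. The groups did not overlap in 0 members and in 0.389% of all genes. The adjusted p of the members ran from 0.543 to 0.997 in edgeR.

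For 27 of the 37 members the 95% interval of the log2 fold change lay within 1 of 0, beside 89.3% of all genes. The 10 whose intervals reached past 1 were Tmem119, Gpr34, Irf8, Cd68, Lyz2, Aif1, Itgam, Cd53, Mrc1 and Pf4, all with fewer than 400 counts in sum. The median biological coefficient of variation was 25.2% over the members and 19.3% over all genes. In bulk tissue, fewer cells of a type and less RNA per cell cannot be told apart, and this holds for every value here.

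**Figure D1:**
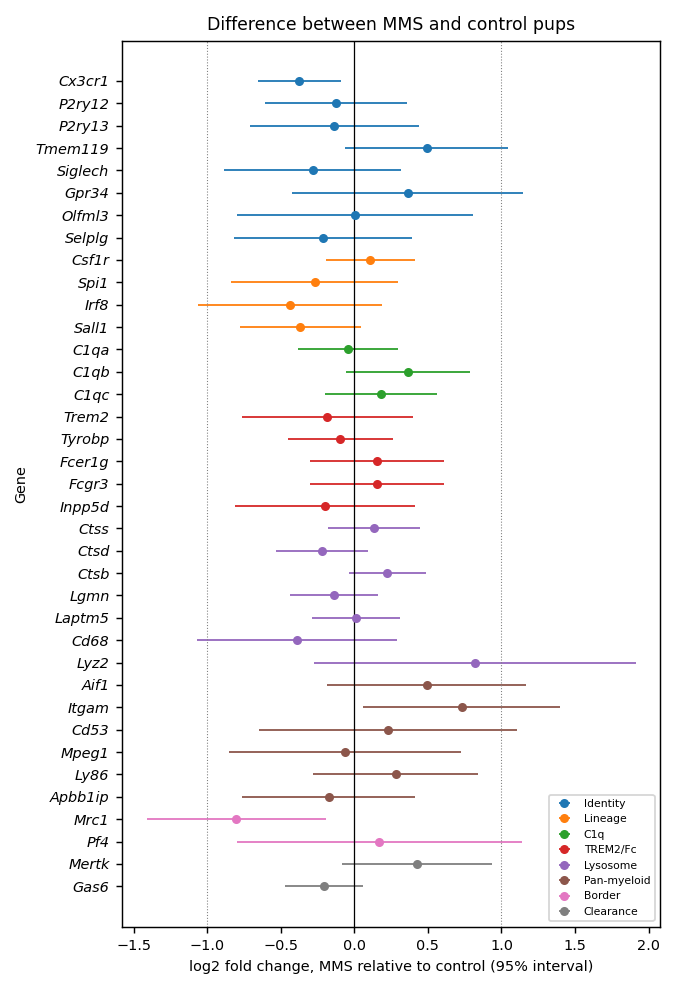
Log2 fold change of MMS against Control (x axis) for the 37 members tested, with points at the edgeR estimate, bars for 95% intervals and dotted lines at -1 and 1. The intervals of Cx3cr1, Mrc1 and Itgam do not reach 0, and the other 34 do.

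The identity genes, most of them for cell surface proteins, are used as markers of microglia. Of the 8 tested, 3 were higher and 5 lower in mean, with a median of -0.13. Cx3cr1, the receptor for neuronal fractalkine and the most abundant of them, measured 52.5, 59.1 and 84.8 CPM in Control (lowest, median, highest) and 36.9, 48.8 and 59.4 CPM in MMS. The groups overlapped, with 3 MMS libraries below every Control and 3 Control libraries above every MMS library. Its log2 fold change was -0.37 (SE 0.14; p in edgeR 0.0119 unadjusted and 0.543 adjusted). The RefSeq span of Cx3cr1, chr9:120048683-120068296 on the minus strand, overlaps no other gene of the types searched. Its longer span in GENCODE M21 holds a transcript that runs across its neighbours. The highest Cx3cr1 value was that of Control 4, without which the log2 fold change was -0.27 (edgeR unadjusted p = 0.0508). Without MMS 2 and MMS 4 it was -0.25 (p in edgeR 0.0606 unadjusted and 0.961 adjusted).

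Tmem119, a membrane protein found on microglia and not on other brain macrophages, differed in the other direction. It measured 2.93, 3.57 and 5.27 CPM in Control and 3.98, 5.15 and 7.41 CPM in MMS. Here 2 MMS libraries lay above every Control and 4 Control libraries below every MMS library, so the groups overlapped. The log2 fold change was 0.49 (SE 0.27, with an edgeR adjusted p of 0.569). The purine receptor genes P2ry12 and P2ry13, through which microglia sense nucleotides released by neighbouring cells, had log2 fold changes of -0.12 (SE 0.23) and -0.14 (SE 0.28). Both lie within Med12l on the opposite strand, and their reads cannot be assigned to one strand from the sources at hand. Gpr34, a lysophosphatidylserine receptor and the least abundant gene of the group, ranged from 1.09 to 6.19 CPM in Control and from 2.11 to 7.25 CPM in MMS. Siglech, Olfml3 and Selplg had log2 fold changes of -0.28, 0.0053 and -0.21. None of these 6 had an unadjusted p under 0.05. Without MMS 2 and MMS 4 they were -0.37 for P2ry12, 0.018 for P2ry13, 0.13 for Gpr34, 0.21 for Olfml3 and -0.36 for Selplg, with P2ry13 changed in sign. Summed over the 8 genes, Control libraries held 90.4, 99.9 and 139 CPM and MMS libraries 82.1, 92.8 and 96.0 CPM. The values overlapped, with Control 4 far above the others.

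Genes for survival and lineage followed. Csf1r, the receptor for CSF1 and IL-34 on which microglia depend, measured 22.8, 30.1 and 35.1 CPM in Control and 26.7, 31.9 and 39.9 CPM in MMS. Its log2 fold change was 0.11 (SE 0.14; 95% interval -0.19 to 0.41), so a difference of 1 log2 unit lay outside the interval. The transcription factors were all lower in mean in MMS. Sall1, which maintains microglial identity, measured 8.15, 11.3 and 14.3 CPM in Control and 6.47, 9.05 and 11.0 CPM in MMS. Of its Control libraries 4 lay above every MMS library and 2 MMS libraries lay below every Control, and the rest overlapped. The log2 fold change was -0.37 (SE 0.20, with an edgeR adjusted p of 0.566), and -0.51 without MMS 2 and MMS 4 (edgeR unadjusted p = 0.0338). Irf8 had a log2 fold change of -0.44 (SE 0.30, with an edgeR adjusted p of 0.639) and Spi1 one of -0.27 (SE 0.27, with an edgeR adjusted p of 0.755). Without MMS 2 and MMS 4 the value of Spi1 was -0.05, and without Control 1, its highest library, that of Irf8 was -0.21. Spi1 was the least abundant of the 4, at 3.80 to 6.67 CPM in Control and 2.15 to 6.96 CPM in MMS.

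The 3 subunits of C1q, the recognition protein of the classical complement cascade, are encoded side by side on chromosome 4 (C1qb at chr4:136880126-136886200, C1qc at chr4:136889801-136892936 and C1qa at chr4:136895916-136898844, all on the minus strand). They did not differ in the same direction in mean. C1qb, the least abundant subunit, measured 12.2, 18.2 and 27.3 CPM in Control and 19.2, 22.9 and 39.1 CPM in MMS. Only 1 MMS library, MMS 3, lay above every Control, while 4 Control libraries lay below every MMS library. This gave a log2 fold change of 0.36 (SE 0.20, with an edgeR adjusted p of 0.582), and 0.20 without MMS 3. C1qc had a log2 fold change of 0.18 (SE 0.18) and C1qa, the most abundant, one of -0.04 (SE 0.16), and without MMS 2 and MMS 4 these were -0.0067 and 0.12. The sum of the 3 was 67.1, 72.6 and 83.2 CPM in Control and 70.9, 78.4 and 111 CPM in MMS, with the highest value again in MMS 3.

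The TREM2 and Fc receptor genes, whose products signal through adaptors with ITAM motifs, showed no member with an unadjusted p under 0.05. Log2 fold changes were -0.18 (SE 0.28) for Trem2, the receptor for lipids of dying cells, and -0.09 (SE 0.17) for Tyrobp, its adaptor DAP12. They were 0.15 (SE 0.22) for both Fcer1g, the Fc receptor gamma chain, and Fcgr3, an IgG receptor, and -0.20 (SE 0.29) for Inpp5d, the phosphatase SHIP1 that restrains the pathway. All 5 intervals lay within 1 log2 unit of 0. Without MMS 2 and MMS 4 the values were -0.25 for Tyrobp and 0.06 for Fcer1g, and without Control 4 that of Trem2 was 0.045. Tyrobp was the most abundant of the group at 14.0, 17.3 and 19.0 CPM in Control and 12.7, 14.8 and 23.4 CPM in MMS. MMS 2 was its highest library and MMS 3 its lowest, so the MMS values surrounded the Control values. Inpp5d was the least abundant at 2.80 to 7.16 CPM in Control and 2.58 to 5.32 CPM in MMS.

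**Figure D2:**
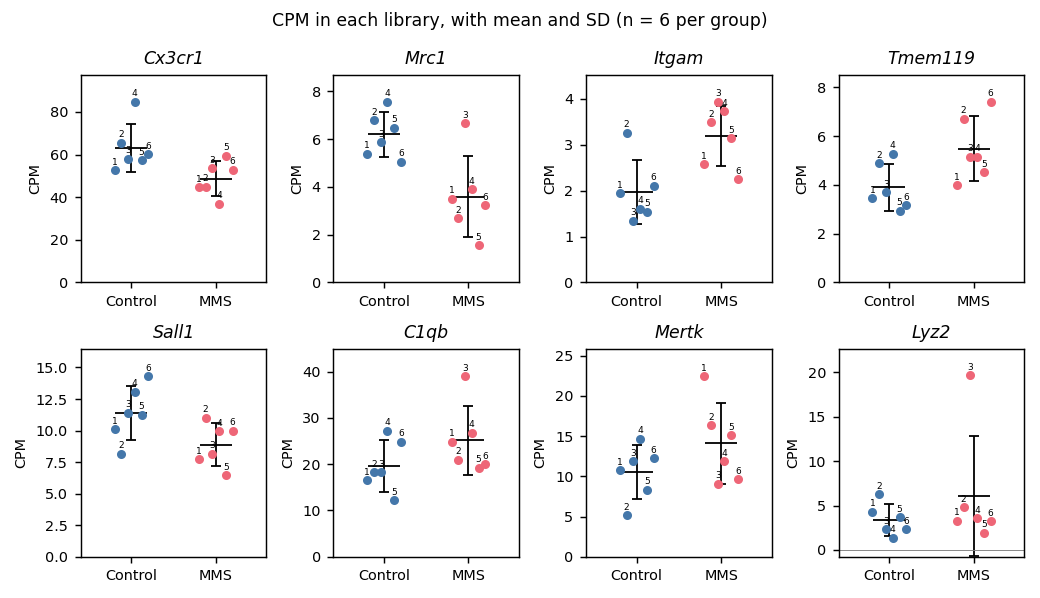
CPM (y axis) of 8 members in each library, grouped as Control and MMS with 6 libraries each and the group mean and SD marked. The groups overlap in all 8, and MMS 3 gives the highest points of Lyz2 (19.7 CPM) and C1qb (39.1 CPM).

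Lysosomal genes included the 2 most abundant members, both proteases of many cell types. Ctsd, an aspartic protease at chr7:142375910-142387827 on the minus strand, measured 371, 425 and 462 CPM in Control and 227, 378 and 505 CPM in MMS. The fitted difference, as a log2 fold change, was -0.22 (SE 0.15, with an edgeR adjusted p of 0.638). Ctsb, a cysteine protease at chr14:63122462-63145923 on the plus strand, measured 231, 265 and 280 CPM in Control and 228, 285 and 391.1 CPM in MMS, with a log2 fold change of 0.22 (SE 0.12, with an edgeR adjusted p of 0.582). The spread of the MMS libraries was far wider than that of Control for both genes (SD 103 against 33.9 CPM for Ctsd and 68.7 against 19.1 CPM for Ctsb, n = 6 per group). The MMS libraries at the low end of Ctsd were those at the high end of Ctsb, namely MMS 2 (227 CPM of Ctsd and 380 CPM of Ctsb) and MMS 4 (264 and 391.1 CPM). The ratio of Ctsb to Ctsd counts, examined after these values were seen, was 1.67 in MMS 2 and 1.48 in MMS 4, and between 0.452 and 0.856 in the other 10 libraries. Without those libraries the log2 fold changes were -0.0014 for Ctsd and 0.01 for Ctsb. In the same 2 libraries the ependymal cilia list summed to 30.9 and 63.0 CPM, beside 108 to 239 CPM in the others. The sum of the 9 neuronal markers was also lowest there, at 6278 and 6244 CPM beside 6911 CPM or more. The most abundant of these markers held 150195 of their 401367 counts, and 7 of the 9 were higher and 2 lower in mean in MMS. The sum of the 8 astrocyte markers was highest there, at 2376 and 2386 CPM beside 2116 CPM or less. The part of these cell types in the cathepsin values was not tested. Ctsd overlaps a predicted gene on the same strand, and Ctsb overlaps Fdft1 on the opposite strand.

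**Figure D3:**
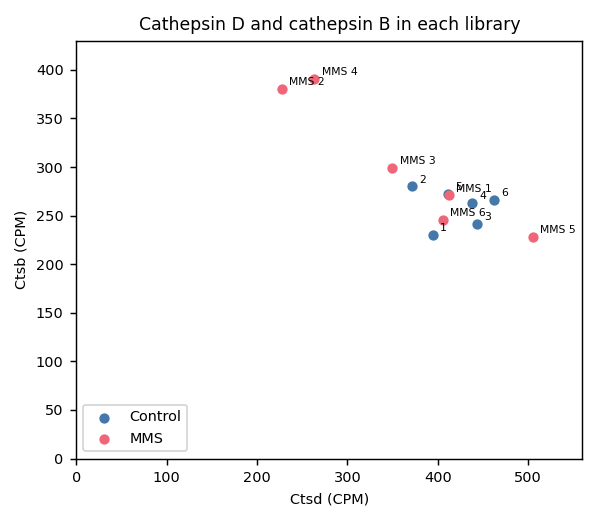
Ctsb (y axis) against Ctsd (x axis) in CPM, with 1 point for each of the 6 Control and 6 MMS libraries. MMS 2 and MMS 4 lie apart at low Ctsd (227 and 264 CPM) and high Ctsb (380 and 391.1 CPM).

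None of the other lysosomal members had an unadjusted p under 0.05. Log2 fold changes were 0.13 (SE 0.15) for Ctss, the cathepsin most specific to microglia in brain, -0.14 (SE 0.14) for Lgmn, which encodes legumain, and 0.01 (SE 0.14) for Laptm5, a lysosomal membrane protein of blood cells. Cd68, a lysosomal membrane glycoprotein of phagocytes, had -0.39 (SE 0.33), and -0.69 without MMS 2 and MMS 4. Lyz2, lysozyme of myeloid cells and the least abundant of the group, measured 1.38, 3.03 and 6.25 CPM in Control and 1.96, 3.41 and 19.7 CPM in MMS. Only MMS 3 lay above every Control. The log2 fold change of Lyz2 was 0.82 (SE 0.52, with an edgeR adjusted p of 0.618), the highest of the members tested. Without MMS 3 it was 0.00065, and without MMS 2 and MMS 4 it was 1.03.

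Among genes shared by myeloid cells, Itgam, the integrin subunit CD11b of complement receptor 3, lies at chr7:128062640-128118491 on the plus strand and overlaps a predicted gene on the same strand. It measured 1.34, 1.77 and 3.26 CPM in Control and 2.25, 3.32 and 3.94 CPM in MMS. Of the MMS libraries 3 lay above every Control, and 5 Control libraries lay below every MMS library. Its log2 fold change was 0.73 (SE 0.32; p in edgeR 0.0343 unadjusted and 0.543 adjusted). It rested on 137 counts in all, from 7 to 21 per library. The log2 fold change was 0.63 without MMS 2 and MMS 4 (edgeR unadjusted p = 0.136).

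Aif1, the actin-bundling protein IBA1 used to stain microglia, had a log2 fold change of 0.49 (SE 0.33, with an edgeR adjusted p of 0.629), with its 2 highest values in MMS 3 (13.02 CPM) and Control 3 (11.1 CPM). Ly86, which encodes MD-1, the partner of the receptor RP105, was the most abundant of the group. It measured 7.75, 9.70 and 11.4 CPM in Control and 6.47, 9.83 and 25.7 CPM in MMS. For Ly86 the log2 fold change was 0.28 (SE 0.27) and -0.09 without MMS 3, the library with the value of 25.7 CPM, and 0.45 without MMS 2 and MMS 4. Cd53, a tetraspanin of blood cells, had 0.23 (SE 0.42), Mpeg1, the pore-forming perforin-2, -0.06 (SE 0.38) and Apbb1ip, an adaptor for integrin activation, -0.18 (SE 0.28). Without MMS 2 and MMS 4 Aif1 was 0.58, Cd53 -0.40 and Mpeg1 -0.14. Cd14, the co-receptor for bacterial lipopolysaccharide, had 0 to 9 counts per library, with no count in Control 2, Control 3 and MMS 4. A count of 0 allows up to 3 counts, or 0.815 CPM in Control 2 and 0.503 and 0.532 CPM in Control 3 and MMS 4. In a fit of all genes with at least 10 counts in sum its log2 fold change was 1.05 (SE 0.76, with an edgeR adjusted p of 0.714).

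Border macrophages were represented by Mrc1 and Pf4. Mrc1, the mannose receptor CD206, lies at chr2:14229414-14332023 on the plus strand. It measured 5.06, 6.18 and 7.56 CPM in Control and 1.57, 3.37 and 6.66 CPM in MMS. All MMS libraries but MMS 3 lay below every Control, 5 in number, while MMS 3 fell inside the Control range. The log2 fold change was -0.80 (SE 0.29; 95% interval -1.41 to -0.19; p in edgeR 0.0125 unadjusted and 0.543 adjusted), from 271 counts in all. It was -0.76 without MMS 2 and MMS 4 (edgeR adjusted p = 0.961). Pf4, a chemokine abundant in platelets and border macrophages, measured 2.15, 2.89 and 5.48 CPM in Control and 0.644, 2.87 and 9.83 CPM in MMS. Its highest and lowest libraries differed 15.3-fold, the widest range of the members tested. Its log2 fold change was 0.17 (SE 0.46), and -0.40 without MMS 1, its highest library, so its direction rested on that library.

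Meningeal markers varied across the same libraries. The 8 meningeal and fibroblast markers summed to 219, 260 and 443 CPM in Control and 96.3, 184 and 500 CPM in MMS (7 of 8 tested, 6 lower and 1 higher in mean, median -0.29, 1 of them with an unadjusted p under 0.05). MMS 1 had the highest sum, with 9.83 CPM of Pf4 and 3.51 CPM of Mrc1. MMS 5 had the lowest, with 0.981 CPM of Pf4 and 1.57 CPM of Mrc1. The part of meningeal tissue in the Mrc1 and Pf4 values was not tested. A further 11 border macrophage genes summed to 31.8, 39.2 and 45.5 CPM in Control and 23.7, 36.5 and 62.7 CPM in MMS. The most abundant of them held 1404 of their 2135 counts, so it weighs most in this sum. Only Stab1 (log2 fold change -0.18) and Maf (-0.03) of that list passed the count filter.

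Genes of cell clearance made up the remainder. Mertk, a receptor that binds dying cells through bridging proteins, measured 5.16, 11.3 and 14.7 CPM in Control and 9.08, 13.5 and 22.5 CPM in MMS. Of the MMS libraries 3 lay above every Control and 2 Control libraries lay below every MMS library. This amounted to 0.43 on the log2 scale (SE 0.24, with an edgeR adjusted p of 0.586), and to 0.26 without MMS 1, its highest library. The 8 astrocyte markers, from cells that also make Mertk, summed to 1708, 2003 and 2092 CPM in Control and 1973, 2107 and 2386 CPM in MMS, and their part was not tested. Gas6, the bridging ligand of MERTK at chr8:13465374-13494535, measured 92.4, 108 and 129 CPM in Control and 73.8, 86.4 and 123 CPM in MMS, with 4 MMS libraries below every Control. In log2 terms MMS differed from Control by -0.21 (SE 0.13, with an edgeR adjusted p of 0.609), and -0.08 without MMS 2 and MMS 4. Receptor and ligand thus differed in opposite directions in mean, neither past the threshold. Spp1, the secreted protein osteopontin, had 2 to 18 counts per library and a log2 fold change of -0.14 (SE 0.46, with an edgeR adjusted p of 0.948) in the fit of all genes with at least 10 counts.

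**Figure D4:**
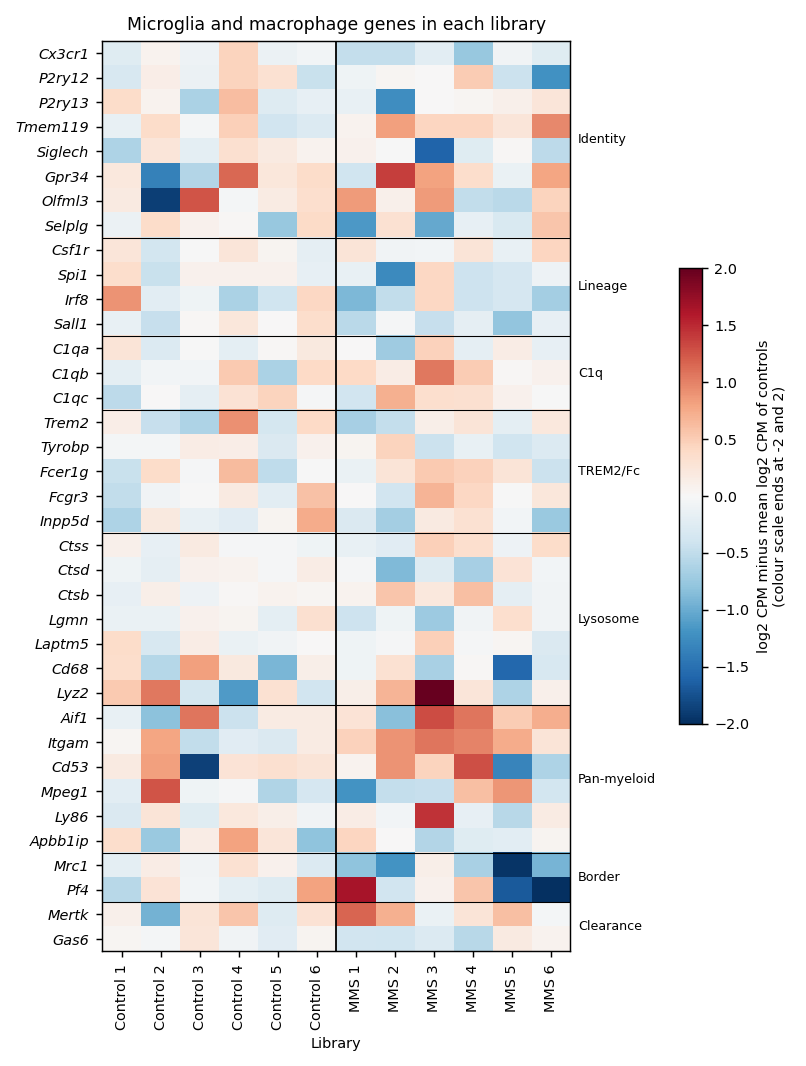
Log2 CPM minus the Control mean for the 37 members tested (rows) in the 12 libraries (columns), on a colour scale that ends at -2 and 2. The column of MMS 3 holds the highest value of 10 genes, among them Lyz2 and Ly86, and that of Control 4 the highest of 7.

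The members were then read across libraries. Summed over the 39 genes, Control libraries held 1207 to 1360 CPM and MMS libraries 1156 to 1338 CPM, with medians of 1267 and 1225 CPM. Without Ctsd and Ctsb the ranges were 545 to 656 and 532 to 632 CPM. The ranges overlapped almost entirely. The smaller sum still held Lgmn, Gas6 and Mertk, which other brain cells also make, with 4561, 5612 and 677 counts. Single genes were less even. MMS 3 was the highest of the 12 libraries for 10 of the 37 members (Spi1, C1qa, C1qb, Fcgr3, Ctss, Laptm5, Lyz2, Aif1, Itgam and Ly86), beside 10.7% of all genes. It was the lowest for 3 (Siglech, Tyrobp and Lgmn). Control 4 was the highest for 7 members (Cx3cr1, P2ry13, Siglech, Trem2, Fcer1g, Apbb1ip and Mrc1), beside 6.45% of all genes. Each gene was assigned to its highest library alone, so these sets could not share a gene and their difference was fixed in advance.

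Interferon-response genes were also highest in MMS 3, with a summed 67.2 CPM beside 22.5 to 36.2 CPM in the other 11 libraries. Markers of monocytes, neutrophils and lymphocytes were scarce. The 12 monocyte and neutrophil genes had 195 counts in all, and their sum in MMS 3 was 2.73 CPM, inside the Control range of 1.90 to 5.86 CPM. The 8 lymphocyte genes had 29 counts in all, and Cd3e and Cd3d were among the 3 with no count. The 6 red blood cell genes summed to 1500 CPM in MMS 3, beside 616 to 1112 CPM in the other MMS libraries and 850 to 1536 CPM in Control. The part of blood in the MMS 3 values was not tested.

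Other genes of the same pathways were taken from lists apart from the members. Of 40 further microglia genes 19 passed the filter, 9 higher and 10 lower in mean, with a median of -0.05 and none at an unadjusted p under 0.05. Emr1, the macrophage antigen F4/80 and the one with the smallest p, had a log2 fold change of 0.45 (SE 0.24, with an edgeR adjusted p of 0.571), and Nckap1l, of the actin regulator WAVE, one of -0.41 (SE 0.28). Summed over the list, Control and MMS libraries overlapped at 212 to 246 and 207 to 243 CPM.

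Of 12 ligands by which other cells address microglia, 11 were tested, 5 higher and 6 lower in mean (median -0.0071). Their sum was 3563 and 3519 CPM in MMS 2 and MMS 4 and 4267 to 4908 CPM in the other libraries. The most abundant ligand, Apoe, held 185758 of the 242576 counts of the list, so it weighs most in this sum. Tgfb2, of the TGF-beta family that microglia need, had -0.33 (SE 0.14; p in edgeR 0.0288 unadjusted and 0.543 adjusted). Cd47, the signal that restrains engulfment, had 0.20 (SE 0.11), and Apoe, the lipid carrier and the most abundant, stood at 3412 CPM in Control and 3355 CPM in MMS. Cytokine transcripts were few. Of 20 genes of inflammatory activation 3 passed the filter, and 2 of the others had no count in any library. The activation marker Cd83 had 0.29 (SE 0.14; p in edgeR 0.0487 unadjusted and 0.546 adjusted), and Nfkbia, which encodes the inhibitor of NF-kB, 0.05 (SE 0.14).

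Of 14 genes of the activated microglia seen in early postnatal brain 9 were tested, 1 higher and 8 lower in mean, with a median of -0.16. Their sum was lowest in MMS 2 and MMS 4, at 369 and 475 CPM, and was 649 to 797 CPM in the other MMS libraries beside 633 to 783 CPM in Control. Plin2, which coats lipid droplets, had -0.39 (SE 0.17; p in edgeR 0.0294 unadjusted and 0.543 adjusted), Igf1, a growth factor, -0.27 (SE 0.17) and the tetraspanin Cd63, the most abundant, -0.41 (SE 0.35). None of these passed the threshold. Cd63 alone held 19892 of the 37366 counts of the list, so it weighs most in the sums above. Which cells these transcripts came from was not tested. Of 10 interferon-response genes 4 were tested (3 higher, 1 lower, median 0.17). Bst2, a membrane protein that tethers virus particles, had -0.32 (SE 0.36), and Ifitm3, the most abundant, 0.20 (SE 0.32). Of 8 antigen presentation genes 4 were tested, all 4 higher in mean with a median of 0.08. H2-D1, a class I heavy chain, had 0.32 (SE 0.13; p in edgeR 0.0237 unadjusted and 0.543 adjusted) and B2m, its light chain, 0.14 (SE 0.14).

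Markers of the other cell types in the dissected tissue were read beside the members. In mean, all 5 red blood cell genes tested, all 10 ependymal genes and all 4 choroid plexus genes were lower in MMS, with medians of -0.36, -0.60 and -0.16. Choroid plexus transcripts were high in 1 library, Control 3, at 1793 CPM beside 21.6 to 36.0 CPM in MMS. Endothelial genes (3 higher, 5 lower) had a median of -0.07, pericyte genes (2 higher, 4 lower) -0.03, astrocyte genes (4 higher, 4 lower) -0.0072, oligodendrocyte lineage genes (7 higher, 2 lower) 0.15 and neuronal genes (7 higher, 2 lower) 0.09. No gene of these lists passed the threshold, and their part in the members' values was not tested beyond the values given above.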

How the data were processed

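Hypothalamic RNA of 6 Control and 6 MMS pups was made into 3' mRNA libraries, 12 on a chip, and sequenced on the Ion Proton. The authors aligned reads to the mouse genome (mm10) in the Torrent Suite and deposited raw read counts per gene symbol, neither normalized nor pooled. The sources used here do not name the counting tool, annotation or strand setting, so reads of overlapping genes cannot be told apart. Of the 39 members 10 overlap another gene, 8 of them within 1000 bases of the 3' end. The 8 are P2ry12, P2ry13, Gpr34, Irf8, Ctsd, Ctsb, Itgam and Gas6. Symbols turned into dates in 27 rows (0.175% of counts) could not be named.

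Groups came from the sample titles. Counts were tested with edgeR 4.0.16 in R 4.3.3 (quasi-likelihood, robust, TMM scaling, minimum count 10 and minimum total 15), two-sided, with Benjamini-Hochberg adjustment over 13104 genes and a threshold of 0.05. The study names no model, so the plain comparison of groups was fitted. Pairs of libraries within a group differed by more than sampling noise (chi-square per degree of freedom 4.04 to 31.5, genes with at least 20 counts), so all were kept as separate. Reads carry no molecular identifiers, and upper limits for a 0 therefore describe counting error alone. Alternatives were RLE scaling, DESeq2 1.42.0, limma-voom 3.58.1, other count filters, a replicate block, and leaving out libraries. Members named in detail were those at an unadjusted p under 0.05, the 5 with the smallest p in each direction, and the most and least abundant of each role group; of other lists, the 2 smallest p and the most abundant gene. Some genes that this rule takes from the other lists are not reported here. The ratio of Ctsb to Ctsd was chosen after its values were seen. The members and all lists were chosen with earlier results of these data known. Coordinates are RefSeq spans on GRCm38.p6, 1-based. Overlaps of these spans were read from GENCODE M21 on the same build, among protein-coding and long noncoding genes. The test was checked on simulated counts.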

Additional observations from a re-analysis of the deposited data

Results flagged for a closer look

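In each group of pups, sets of 6 values were taken for the members, the summed role groups and the Ctsb to Ctsd ratio. Of these 96 sets, 11 had an extreme library whose gap to its neighbour exceeded Dixon's 95% critical value. Chance gives about 1 in 20, or 4.8, but the 11 are not separate observations, as role sums contain members. Among MMS pups, MMS 3 held 6 of them. It was far above the rest for Lyz2 (19.7 CPM, the next library at 4.84), Ly86 (25.7 CPM, next 10.6), Laptm5 (49.7 CPM, next 36.7) and Irf8 (7.57 CPM, next 4.51). Its sums were also high for the C1q subunits (111 CPM, next 83.4) and for the genes shared by myeloid cells (54.5 CPM, next 39.9). The other MMS libraries were MMS 2, which was low for P2ry13 (2.42 CPM, next 5.15), and MMS 5, with a high sum of lysosomal genes (904 CPM, next 810.2). Among Control pups the values were those of Control 3 for Aif1 (11.1 CPM, next 5.90), Control 2 for Mpeg1 (8.97 CPM, next 3.67) and Control 4 for the sum of identity genes (139 CPM, next 106.5).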

How the results depend on the processing

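No member passed an FDR of 0.05 under any of 19 alternatives. Over all genes the count was 0 in edgeR, 7 in DESeq2, 1 without a filter on low counts, 1 with the replicate block and 5 without MMS 2 and MMS 4, and 0 to 1 on leaving out 1 library. Members higher at an unadjusted p under 0.05 numbered 1, against 2 without a filter, 0 with the replicate block and 0 without MMS 2 and MMS 4, and 0 to 3 on leaving out 1 library (3 without Control 4 or MMS 5, 0 without MMS 4 or Control 5, 2 without MMS 1, Control 6 or MMS 6). Members lower numbered 2, and 1 (without Control 4) to 4 (without MMS 5). The share of all genes under this p moved as well, from 9.08% in the full set to 13.6% once MMS 5 was dropped. The higher member counts in that fit therefore came with a larger share of all genes. Dropping MMS 2 or MMS 4 lowered the share to 5.27% or 5.35%. The 3 higher members seen on dropping Control 4 stood beside a smaller share, 7.48%. The median over members ran from -0.09 to 0.03 on leaving out 1 library. Mrc1 had an unadjusted p under 0.05 in all 19 alternatives (edgeR, DESeq2 or limma adjusted p 0.347 to 0.961), Cx3cr1 in 17 and Itgam in 10.

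Of 703 member values, 672 kept their direction, and 25 of 37 members never reversed. Without MMS 2 and MMS 4 the reversed log2 fold changes were 0.018 for P2ry13, 0.12 for C1qa, -0.0067 for C1qc and -0.40 for Cd53. Pf4 was -0.22 in limma-voom and -0.088 with the block. On leaving out 1 library the ranges were -0.29 to 0.0094 for P2ry12, -0.25 to 0.0175 for P2ry13, -0.18 to 0.34 for Olfml3, -0.16 to 0.067 for C1qa, -0.30 to 0.045 for Trem2, -0.090 to 0.091 for Laptm5, -0.087 to 0.44 for Cd53, -0.32 to 0.29 for Mpeg1, -0.090 to 0.42 for Ly86, -0.29 to 0.0051 for Apbb1ip and -0.40 to 0.39 for Pf4. The cause was not tested.

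Control and MMS titles share replicate numbers, but the correlation of deviations of same-numbered libraries ran from -0.05 to 0.12, so the numbers were not taken as pairs. With the replicate block the unadjusted p in edgeR was 0.0244 for Cx3cr1, 0.0132 for Mrc1 and 0.0552 for Itgam. Depth was low for some members, such as Itgam with 137 counts, whose interval reached 1.40.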
